A study of Mus musculus with 6 samples.

Results

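The genes described here form the structural and retrograde traffic machinery of the Golgi apparatus: the golgins and their partners, the COG complex, the COPI coat, the p24 cargo adaptors with the KDEL receptors, and the SNAREs that act between them. They were taken from a fixed list of 54 gene symbols, and all 54 were found among the 34866 genes of the deposited table. RNA had been sequenced from mucosa of the gastric antrum of mice, with 3 libraries labelled Muc6 -/- (called knockout 1 to 3) and 3 libraries labelled Muc6 +/+ (called wild type 1 to 3). Muc6 encodes a secreted mucin made by mucous cells of the antral glands. The labels name no other allele, agent, strain or age, and the study's title concerns impaired glycosylation and Golgi stress in the stomach.

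Golgins are long coiled-coil proteins that reach out from Golgi cisternae and catch passing vesicles, and the COG complex tethers vesicles that return resident enzymes to earlier cisternae. The COPI coat, recruited to membranes by activated Arf1, forms those returning vesicles and carries escaped proteins back to the endoplasmic reticulum (ER), where p24 proteins and KDEL receptors help to choose the cargo. In mucus-secreting cells of the stomach, this recycling keeps glycosyltransferases in place while mucins pass through.

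The genes did not move as one block. Of the 54, 8 were higher and 11 lower in the knockout at an adjusted p under 0.05, and 35 did not pass (edgeR quasi-likelihood test, Benjamini-Hochberg adjustment over all tested genes). The 19 genes called make up 35.2% of the list, against 38.4% called among all 14017 tested genes, of which 19.3% were higher and 19.2% lower. The median change was -0.02 on the log2 scale, against 0.02 for all tested genes, and the median size of a change was 0.26, against 0.50. Only Kdelr3, a KDEL receptor gene, changed by at least 1 on the log2 scale (a factor of 2), while 15.9% of all tested genes passed the threshold with a change of that size. The libraries of the genotypes did not overlap for 30 of the 54 genes (55.6%), 12 higher and 18 lower, against 54.8% of all tested genes, 28.2% higher and 26.6% lower. All 54 passed the filter on low counts, with mean counts per library of 205.3 (Kdelr3) to 19540 (Golm1). The sizes of change above were set beside all tested genes without matching for counts, and scarcer genes can have noisier estimates.

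**Figure D1:**
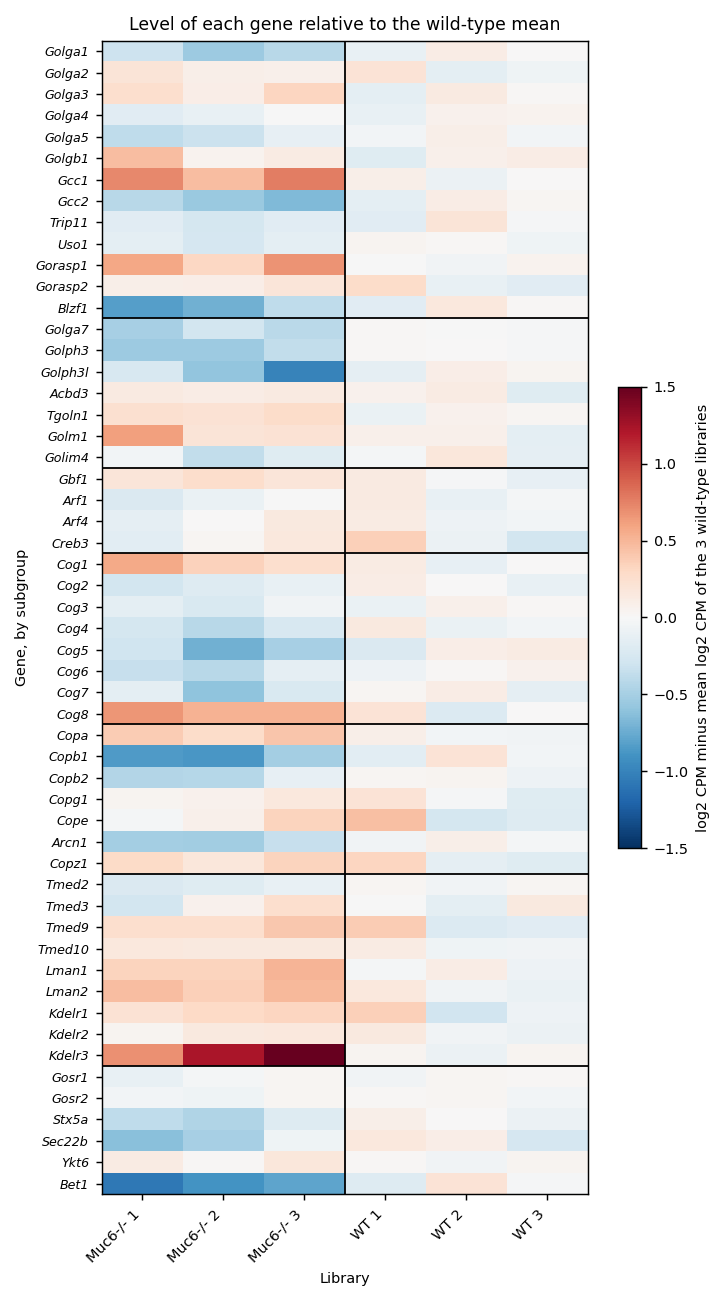
Level of each of the 54 genes in each library, as log2 CPM minus the mean log2 CPM of the 3 wild-type libraries, with genes in rows by subgroup and libraries in columns. Kdelr3 has the darkest red cells, Bet1 is dark blue in all 3 knockout libraries and Golph3l in knockout 3, and each of the COG and COPI blocks holds rows of both colours.

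The libraries held 19839691 to 21353935 counts. Muc6 itself was at 0.0425, 0 and 0 CPM (counts per 1e6 of the composition-scaled library size) in knockout 1, 2 and 3, and at 396, 403 and 510 CPM in wild type 1, 2 and 3. The Y-linked gene Ddx3y averaged 40.5 ± 1.06 CPM in the knockout libraries and 0.166 ± 0.142 CPM in the wild-type libraries (SD, n = 3 each), so sex and genotype cannot be told apart here. Antral markers were present: the 5 pit mucous cell markers summed to 38490 to 50550 CPM in the knockout libraries and 159200 to 183600 CPM in wild type (4 of 5 lower), and the 5 gland mucous cell markers to 13050 to 18980 CPM in the knockout and 8952 to 11430 CPM in wild type (4 of 5 higher, 1 lower). Of the 6 markers of gastrin and other endocrine cells 3 were lower, with sums of 54.1 to 342 CPM in the knockout and 1414 to 1942 CPM in wild type, and none was at 0 in any library. Of 5 parietal cell markers 4 were tested and 3 were lower, with sums of 8.58 to 65.5 CPM in the knockout and 114 to 473 CPM in wild type, and Slc26a7 was at 0 in knockout 1 and wild type 1 and Kcne2 in knockout 2. Of 6 plasma cell markers 5 were tested and 4 were higher. Their sums, 467 to 995 CPM in the knockout and 257 to 279 CPM in wild type, hide the size of this, since Xbp1, which other secretory cells also express, made up nearly all of the wild-type sum (246 CPM in the knockout and 267.5 CPM in wild type, not past the threshold). Jchain averaged 69.2 CPM in the knockout and 0.245 CPM in wild type, Igha 242 CPM in the knockout and 0.145 CPM in wild type, and Igkc 157 CPM in the knockout and 0.0381 CPM in wild type, with Igha at 0 in wild type 2 and 3, Igkc in wild type 1 and Mzb1 in wild type 2. Of 5 immune cell markers 4 were tested and 2 were higher, Ptprc (1.66) and Cd79a (3.47), with sums of 64.5 to 99.9 CPM in the knockout and 8.42 to 61.4 CPM in wild type, and Cd3e and Cd79a were at 0 in wild type 2 and 3. In bulk tissue, fewer cells of a type and less RNA per cell cannot be told apart, and the part of these cell types in the values below was not tested. Knockout 1 and wild type 1 stood apart from the other libraries on the second principal component (19.6% of the variance). Smooth muscle markers summed to 46.1 CPM in knockout 1 and 161 CPM in wild type 1. They summed to 532 and 772 CPM in the other knockout libraries and 1104 and 2551 CPM in the other wild-type libraries. Fibroblast markers were also low in wild type 1, at 42.7 CPM against 532 and 670 CPM in wild type 2 and 3. In knockout 1 they summed to 384 CPM, against 503 and 419 CPM in knockout 2 and 3. Without both libraries numbered 1, 11 of the 54 genes were higher and 12 lower, and 7 of the 8 higher and 10 of the 11 lower calls remained. Calls also grew over the whole table in that setting, where 3394 of 14321 tested genes were higher and 3474 lower.

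The scaling of the libraries set the balance between rises and falls. In the knockout libraries 19.5% to 19.8% of counts came from the top 20 genes, against 29.39% to 31.55% in wild type. With total counts in place of composition-scaled library sizes, the median change of all tested genes was 0.43 and that of the 54 genes 0.40 on the log2 scale. In that scaling 28 of the 54 were higher and only Bet1 was lower, against 40.9% of all tested genes higher and 7.78% lower. The 8 genes called higher kept that call, and the 11 called lower lost it apart from Bet1. A fall, here and in what follows, is thus a fall relative to most other genes.

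**Figure D2:**
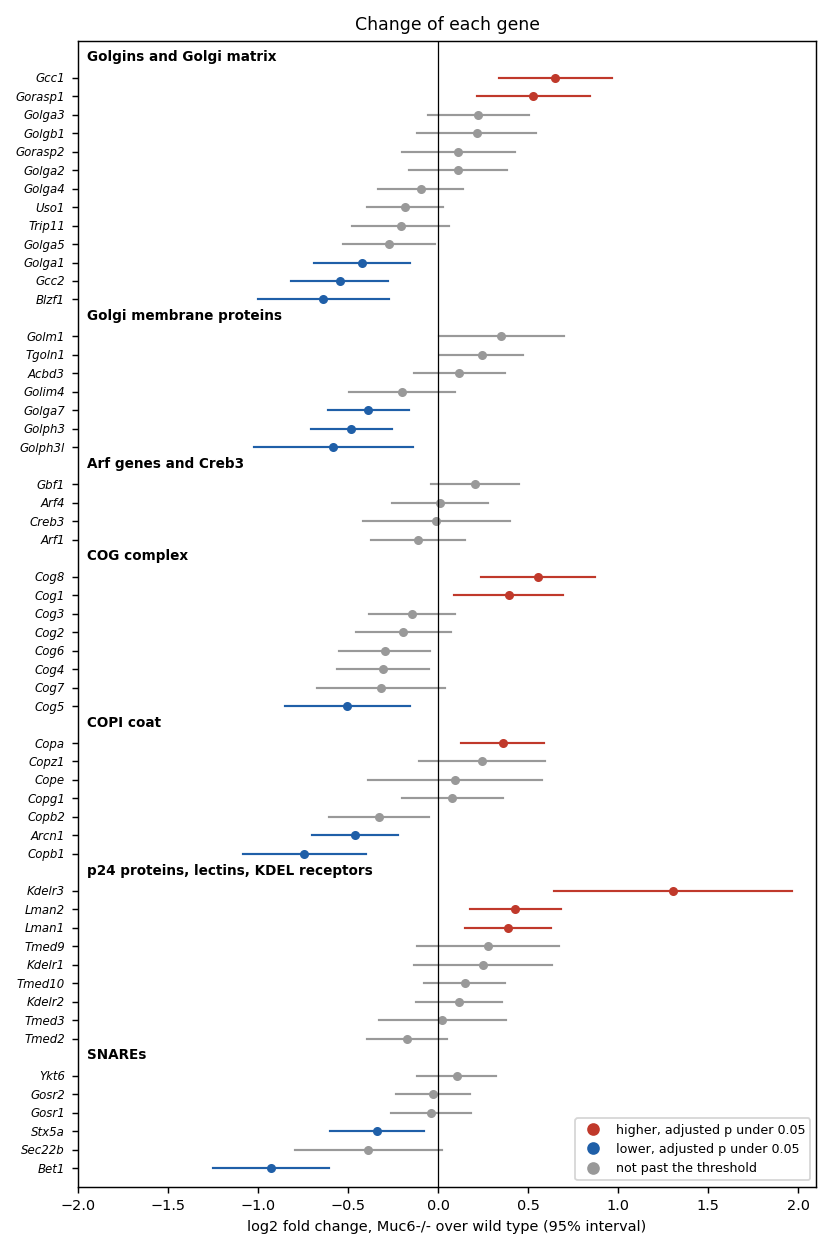
Log2 fold change of each gene, knockout over wild type, with its 95% interval from the edgeR fit, grouped by subgroup and ordered by size within it. Red and blue points passed the threshold, and rises and falls stand side by side in the golgin, COG and COPI groups. The group of p24 proteins, lectins and KDEL receptors has 3 rises (Kdelr3, Lman1 and Lman2), none of them a p24 gene, and no fall.

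The start regions of the genes at the extremes of the list are shown here, because Kdelr3 and Gcc1 had the largest rises and Bet1 and Copb1 the largest falls with composition scaling. Kdelr3 and Gcc1 kept their calls in all 13 alternative settings, while Bet1 lost its call with the trend over GC content removed and Copb1 with total counts. Each line gives the 250 bases before the RefSeq start of the gene, 5′ to 3′ on the strand of the gene (RefSeq, GRCm38.p6). Capitals mark matches to motifs described further on. The Gcc1 start lies inside the longer gene of GENCODE. The windows are chr15:79516158-79516407, plus strand, for Kdelr3, chr6:28421725-28421974, minus strand, for Gcc1, chr6:4086931-4087180, minus strand, for Bet1, and chr7:114254681-114254930, minus strand, for Copb1.
Kdelr3: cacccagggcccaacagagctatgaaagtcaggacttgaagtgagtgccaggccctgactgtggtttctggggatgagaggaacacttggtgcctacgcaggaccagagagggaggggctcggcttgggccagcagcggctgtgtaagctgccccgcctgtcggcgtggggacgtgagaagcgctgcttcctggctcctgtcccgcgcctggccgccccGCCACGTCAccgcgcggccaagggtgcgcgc
Gcc1: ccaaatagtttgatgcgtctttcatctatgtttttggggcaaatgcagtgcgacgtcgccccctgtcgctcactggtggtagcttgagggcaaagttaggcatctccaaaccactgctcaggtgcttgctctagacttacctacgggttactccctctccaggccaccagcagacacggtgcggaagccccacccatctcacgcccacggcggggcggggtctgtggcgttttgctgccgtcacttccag
Bet1: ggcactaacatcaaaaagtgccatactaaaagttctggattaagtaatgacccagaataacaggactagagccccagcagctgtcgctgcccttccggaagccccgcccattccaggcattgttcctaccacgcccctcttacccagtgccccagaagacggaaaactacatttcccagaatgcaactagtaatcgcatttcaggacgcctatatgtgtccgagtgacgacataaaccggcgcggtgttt
Copb1: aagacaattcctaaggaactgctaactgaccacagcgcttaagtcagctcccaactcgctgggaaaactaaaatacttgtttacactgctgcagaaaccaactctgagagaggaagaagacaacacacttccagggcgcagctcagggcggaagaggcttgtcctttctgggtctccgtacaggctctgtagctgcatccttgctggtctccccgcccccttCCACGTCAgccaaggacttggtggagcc

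Among the p24 proteins, lectins and KDEL receptors, called p24 and receptor genes below, 3 of 9 genes rose and none fell. The 3 were Kdelr3 and the lectin genes Lman1 and Lman2, and no p24 gene passed. Kdelr3 encodes a receptor that returns ER chaperones from the Golgi (ENSMUSG00000010830.8, plus strand of chromosome 15, 79516411 to 79527739, mm10). It was at 8.75, 12.6 and 18.8 CPM in knockout 1, 2 and 3, against 5.596, 5.12 and 5.57 CPM in wild type 1, 2 and 3. All knockout libraries were above all wild-type libraries, and the knockout libraries spread widely while the wild-type libraries lay close together. The change was 1.30 on the log2 scale (standard error 0.28, 2.47-fold, adjusted p = 0.0106), and it passed the threshold in all 13 alternative settings, at 0.98 without knockout 3. The other KDEL receptor genes did not pass. Kdelr1 was at 111, 117 and 119 CPM in the knockout libraries against 123, 78.5 and 91.0 CPM in wild type (change 0.25, 95% interval -0.13 to 0.63). Kdelr2 was at 124 to 134 CPM in the knockout libraries against 113 to 132 CPM in wild type (0.12, -0.12 to 0.36). Per kilobase of transcript, Kdelr3 was the least abundant of these receptors, at 9.50 CPM per kb in the knockout and 3.85 in wild type, against 72.5 and 60.9 for Kdelr1.

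Lman1 and Lman2 encode lectins that bind mannose-rich sugar chains and carry glycoproteins in the early secretory pathway. Lman2 was at 201, 186 and 203 CPM in the knockout libraries against 163, 140 and 135 CPM in wild type, a rise of 0.43 (standard error 0.11, adjusted p = 0.0188). Lman1 was at 104, 104 and 117 CPM in the knockout libraries against 81.1, 89.0 and 78.3 CPM in wild type, a rise of 0.39 (standard error 0.10, adjusted p = 0.0214). In both, the lowest knockout library lay above the highest wild-type library. The call of Lman2 ended without knockout 3 (0.0574), wild type 2 (0.0717) or wild type 3 (0.0695), and that of Lman1 without knockout 2 (0.0529), knockout 3 (0.07) or wild type 3 (0.0932).

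The p24 genes of the list did not pass the threshold. Tmed2 was the most abundant of them per kilobase and was lower in every knockout library, at 435 to 469 CPM against 490 to 516 CPM in wild type (change -0.17, adjusted p = 0.188). Tmed9 was at 133, 133 and 148 CPM in the knockout libraries against 145, 96.9 and 98.9 CPM in wild type, so that wild type 1 lay among the knockout libraries. Without wild type 1, Tmed9 and Kdelr1 passed the threshold at 0.48 (adjusted p = 0.00969) and 0.44 (0.0141), and 5 of the 9 genes were higher. In that fit 3045 of 14530 tested genes were higher. With total counts, 8 of the 9 were higher, beside 40.9% of all tested genes.

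Of the 7 COPI coat genes, 1 rose (Copa), 2 fell (Copb1 and Arcn1) and 4 did not pass. Copb1, the beta subunit gene (ENSMUSG00000030754.9), lies on the minus strand of chromosome 7 from 114215559 to 114254711 (mm10). It stood at 166, 163 and 209 CPM in the knockout libraries against 267, 343 and 289 CPM in wild type. The highest knockout library lay below the lowest wild-type library. The fall was 0.74 on the log2 scale (standard error 0.15, 59.8% of wild type, adjusted p = 0.00709). Arcn1, the delta subunit gene, was at 265, 263 and 298 CPM against 364, 401 and 370 CPM and fell by 0.46 (standard error 0.10, adjusted p = 0.0116). Copa, the alpha subunit gene, was at 261, 242 and 267 CPM in the knockout libraries against 213, 195 and 192 CPM in wild type, and rose by 0.36 (standard error 0.10, adjusted p = 0.0246). These groups did not overlap in either direction. Copb2, the beta prime subunit gene, was also lower in every knockout library, at 250 to 311 CPM against 323 to 349 CPM, but did not pass (change -0.33, adjusted p = 0.0642, and 0.0205 with DESeq2).

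The epsilon, gamma and zeta subunit genes Cope, Copg1 and Copz1 overlapped between genotypes, with changes of 0.09, 0.08 and 0.24, and Copz1 passed without wild type 1 (0.41, adjusted p = 0.0166). The call of Copa ended without any 1 library other than wild type 1 (adjusted p 0.0532 to 0.0884), and that of Arcn1 without knockout 2 (0.0586) or wild type 2 (0.0507). That of Copb1 held without any 1 library but ended with total counts (0.104).

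Per kilobase of transcript, the levels of the COPI subunit genes spanned a factor of 4.35 in the knockout and 5.77 in wild type. Copb1 averaged 53.6 CPM per kb in the knockout and 89.6 in wild type, while Copa averaged 55.5 in the knockout and 43.3 in wild type. The level of Copb1 over that of Copa was 0.876, 0.93 and 1.08 in knockout 1, 2 and 3, and 1.73, 2.43 and 2.07 in wild type 1, 2 and 3. These genes were paired because they were called in opposite directions, so the ratio restates their values and is no further evidence. In both genotypes Copb2 was the most abundant subunit gene and Arcn1 came next. Copz1, Copa and Copb1 followed in the knockout within their SD of each other, while in wild type Copb1 lay within its SD of Arcn1 and Copz1 and Copa came after it.

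**Figure D3:**
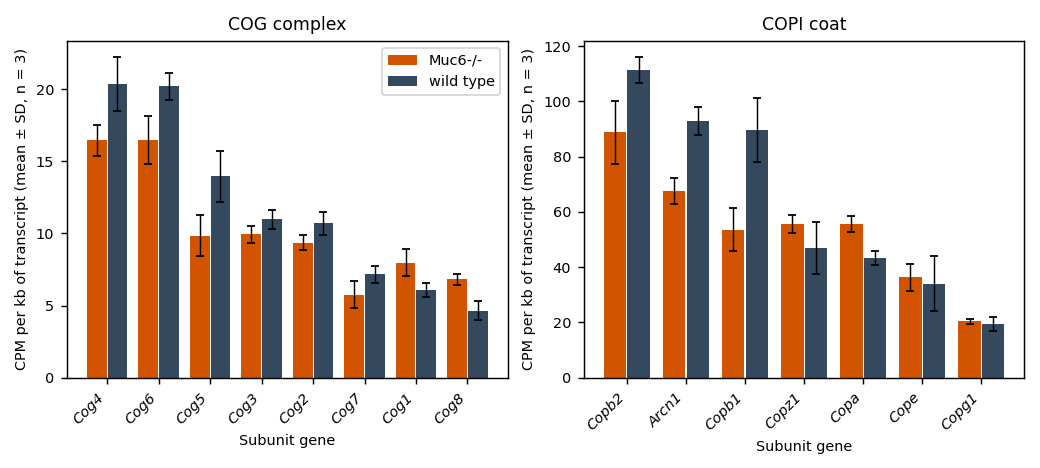
Levels per kilobase of transcript of the COG and COPI subunit genes, as mean and SD of 3 libraries per genotype, on axes that start at 0. In wild type Copb1 (89.6) lay above Copa (43.3), while in the knockout these genes were at 53.6 and 55.5, and Cog1 and Cog8 were the COG genes with the taller knockout bar.

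Of the 8 genes of the COG complex, 2 rose (Cog1 and Cog8), 1 fell (Cog5) and 5 did not pass, a called share of 37.5% beside the 38.4% of all tested genes. With the trend over GC content removed, none was higher and Cog2, Cog4 and Cog7 were lower. With total counts the estimates of the 5 genes that did not pass were all above 0. Cog8 was at 32.5, 29.6 and 29.5 CPM in the knockout libraries against 23.7, 17.8 and 20.8 CPM in wild type, a rise of 0.56 (standard error 0.14, adjusted p = 0.0161). Cog1 was at 35.4, 30.3 and 28.4 CPM against 25.9, 22.0 and 23.9 CPM, a rise of 0.39 (standard error 0.13, adjusted p = 0.0472). Cog5 was at 40.9, 30.5 and 35.4 CPM against 43.1, 53.7 and 54.5 CPM, and fell by 0.50 (standard error 0.15, adjusted p = 0.0323). In each of the 3 genes the groups did not overlap, though knockout 1 and wild type 1 were close for Cog5. Cog1 and Cog8 encode the subunits that bridge the lobes of the complex, and Cog5 a subunit of the second lobe.

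Cog4, Cog6 and Cog7 were lower in every knockout library than in any wild-type library without passing the threshold, with changes of -0.31, -0.29 and -0.32 (adjusted p = 0.0625, 0.0656 and 0.138), and Cog6 passed with DESeq2 (0.049). Cog2 and Cog3 overlapped, at -0.19 and -0.15. The call of Cog1 ended in 11 of the 13 settings, among them without any 1 library other than wild type 1 (0.0561 to 0.139). That of Cog5 ended without knockout 2 (0.112), knockout 3 (0.0865), wild type 2 (0.108) or wild type 3 (0.0946), and that of Cog8 without wild type 2 (0.0522). Some exons of these genes are shared with neighbours, and whether counting used the strand is not given in the sources used here. Pdf, on the same strand as Cog8 and over 28.2% of its exon bases, also rose (0.74, adjusted p = 0.0484), and Hbp1, opposite to Cog5 over 24.04% of its exon bases, also fell (change -0.89, adjusted p = 0.00136). Fam104a, opposite to Cog1 over 22.4%, did not pass (0.11). The part of these neighbours in the counts was not tested.

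Of 13 golgin and Golgi matrix genes, 2 rose and 3 fell. Gcc1, a golgin of the trans-Golgi network (ENSMUSG00000029708.9), lies on the minus strand of chromosome 6 from 28416091 to 28428390 (mm10). It stood at 21.8, 18.4 and 22.6 CPM in the knockout libraries against 14.1, 12.5 and 13.3 CPM in wild type. All knockout libraries were higher. It rose by 0.65 (standard error 0.14, 1.57-fold, adjusted p = 0.00875) and kept its call in all 13 settings. Gcc2, a golgin of the same compartment that captures vesicles from endosomes, moved the other way, at 130, 117 and 109 CPM against 156, 187 and 176 CPM, and fell by 0.55 (standard error 0.12, adjusted p = 0.00967). Golga1, a further trans-Golgi golgin, was at 37.3, 31.7 and 34.4 CPM against 42.5, 49.8 and 46.1 CPM and fell by 0.42 (standard error 0.11, adjusted p = 0.0231). Golga4, also of the trans-Golgi, did not pass (175 to 197 CPM in the knockout libraries and 183 to 206 CPM in wild type).

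Gorasp1 encodes a protein that links cisternae into a stack and was at 23.1, 19.1 and 24.6 CPM in the knockout libraries against 15.4, 14.9 and 16.0 CPM in wild type. It rose by 0.53 (standard error 0.14, adjusted p = 0.0192), and no knockout library overlapped wild type. Wdr48 lies opposite to Gorasp1 over 32.1% of its exon bases and fell (change -0.69, adjusted p = 0.00285). Blzf1, a golgin that binds the related stacking protein Gorasp2, was at 18.2, 19.7 and 24.9 CPM against 28.7, 36.1 and 32.7 CPM and fell by 0.64 (standard error 0.16, adjusted p = 0.0168). Gorasp2 itself was at 95.1 to 102 CPM in the knockout libraries against 79.5 to 108 CPM in wild type and did not pass.

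The tethers of the cis-Golgi and of COPI vesicles did not pass either. Golga2, a cis-Golgi matrix golgin, was at 66.0 to 71.6 CPM in the knockout libraries against 56.9 to 72.2 CPM in wild type, and its partner Uso1 at 106 to 113 CPM against 120 to 129 CPM (change -0.18, adjusted p = 0.149). Golgb1, the giant membrane golgin, was at 76.3 to 101 CPM in the knockout libraries against 64.8 to 79.5 CPM in wild type. Golga3, Golga5 and Trip11 had changes of 0.22, -0.27 and -0.21. The call of Gorasp1 ended without knockout 1 (0.0505), knockout 3 (0.0707), wild type 2 (0.0622) or wild type 3 (0.0508), that of Golga1 without knockout 2 (0.0947), knockout 3 (0.0694), wild type 2 (0.0844) or wild type 3 (0.0586), and that of Blzf1 without knockout 2 (0.067) or wild type 2 (0.0669). Gcc1 and Gcc2 kept their calls without any 1 library.

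Of 7 other Golgi membrane protein genes, 3 fell and none rose, a called share of 42.9% beside the 38.4% of all tested genes. With the trend over GC content removed, 2 of them were higher and 0 lower. Golph3 encodes a protein that binds glycosyltransferases and the COPI coat and so holds the enzymes in the Golgi. It was at 181, 181 and 203 CPM in the knockout libraries against 266, 264 and 259 CPM in wild type. The wild-type libraries lay within a narrow range, well above each knockout library, and the fall was 0.48 (standard error 0.10, 71.6% of wild type, adjusted p = 0.0075). Its paralogue Golph3l was at 158, 124 and 93.1 CPM against 170, 200 and 192 CPM and fell by 0.58 (standard error 0.19, adjusted p = 0.0451), with knockout 1 close to wild type 1. Golga7, an accessory subunit of a palmitoyltransferase, was at 66.8, 78.0 and 71.5 CPM against 95.6, 94.2 and 93.2 CPM and fell by 0.39 (standard error 0.10, adjusted p = 0.0175), though its estimate was 0.03 with total counts.

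Golm1 and Tgoln1, the most abundant of these genes per kilobase, were higher in every knockout library but did not pass. Golm1, a membrane protein of the early Golgi, was at 1245, 934 and 948 CPM in the knockout libraries against 858, 859 and 733 CPM in wild type (change 0.35, adjusted p = 0.0988). Naa35 lies opposite to Golm1 over 29.3% of its exon bases and fell (change -0.72, adjusted p = 0.00261). Tgoln1, which cycles between the trans-Golgi network and the cell surface, was at 582, 569 and 592 CPM against 460, 515 and 499 CPM (0.24, adjusted p = 0.0899, and 0.0319 with DESeq2). Acbd3 and Golim4 overlapped, at 0.12 and -0.20. The call of Golph3 held without any 1 library, that of Golph3l ended without any 1 library other than knockout 1 (0.056 to 0.141), and that of Golga7 ended without knockout 1 (0.0524), knockout 3 (0.0591) or wild type 2 (0.0603).

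Of the 6 SNARE genes, which drive fusion of vesicles at the cis-Golgi and within the stack, 2 fell and none rose. Bet1 (ENSMUSG00000032757.6) lies on the minus strand of chromosome 6 from 4076899 to 4086972 (mm10). It stood at 24.2, 27.4 and 29.4 CPM in the knockout libraries against 44.8, 58.9 and 50.5 CPM in wild type. Every knockout library was well below every wild-type library. With composition scaling this was the largest fall among the 54 genes, 0.93 on the log2 scale (standard error 0.14, 52.6% of wild type, adjusted p = 0.0024). With the trend over GC content removed Bet1 was at -0.29 and did not pass (adjusted p = 0.0866). Cog7 (-0.52), Cog4 (-0.46), Copb1 (-0.40), Cog2 (-0.39), Arf1 (-0.32) and Golga5 (-0.31) had larger falls in that setting. Stx5a, the syntaxin that pairs with Bet1, was at 34.5, 33.0 and 39.2 CPM against 47.6, 45.2 and 42.2 CPM and fell by 0.34 (standard error 0.11, adjusted p = 0.046), a call that ended when any 1 library was left out (0.0513 to 0.164), and its estimate was 0.08 with total counts. Sec22b was at 52.9, 57.6 and 77.5 CPM against 90.4, 87.4 and 68.1 CPM, where knockout 3 overlapped wild type 3, and did not pass (change -0.39, 95% interval -0.80 to 0.02). Gosr1, Gosr2 and Ykt6 differed little, at -0.04, -0.03 and 0.10, with intervals that reached no further than -0.26 and 0.32.

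**Figure D4:**
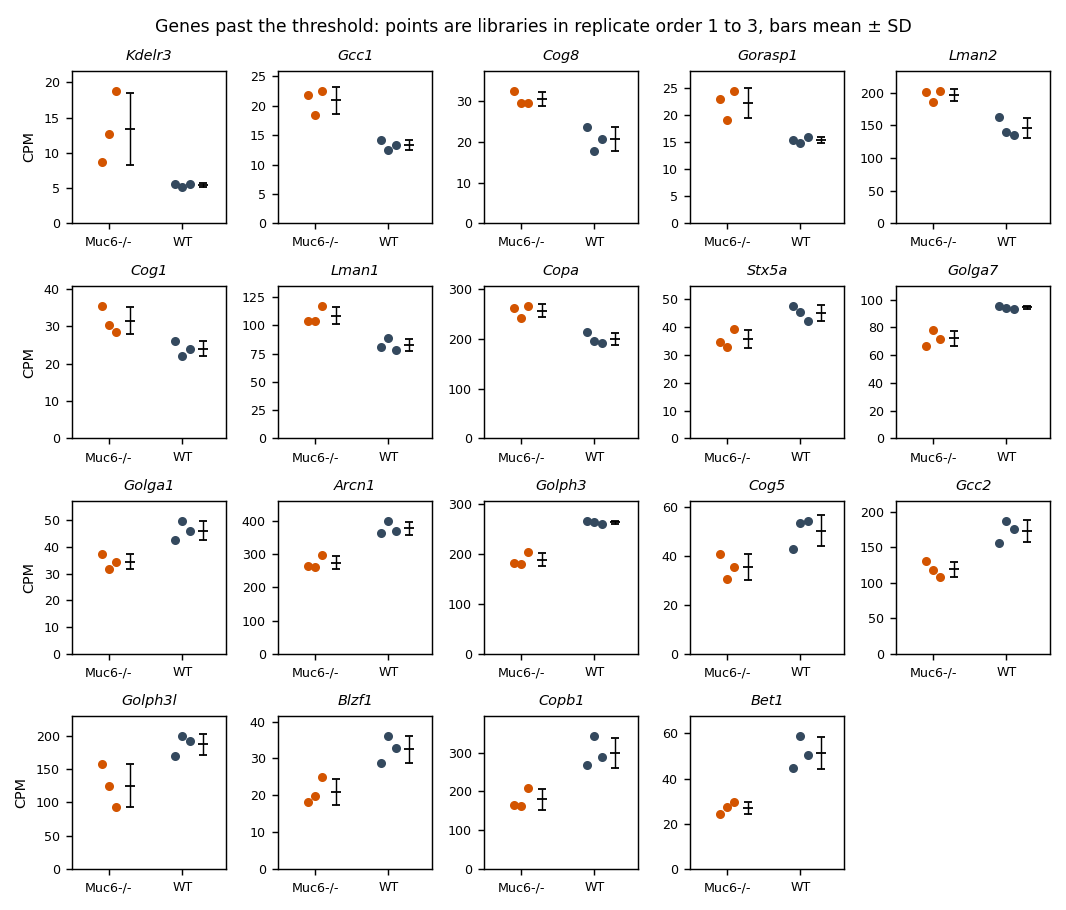
CPM of the 19 genes past the threshold in each library, ordered from the largest rise to the largest fall, with the 3 knockout libraries left of the 3 wild-type libraries and bars for mean ± SD. The points of the genotypes do not overlap in any panel, and the knockout points of Kdelr3 (8.75 to 18.8 CPM) and Golph3l (93.1 to 158 CPM) spread the most for their level.

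None of the 4 genes around Arf activation passed, and at an unadjusted p under 0.05 the count was also 0. Arf1, the GTPase that recruits COPI, was at 447, 482 and 514 CPM in the knockout libraries against 568, 481 and 510 CPM in wild type (change -0.11, 95% interval -0.37 to 0.15). Gbf1, the exchange factor that activates it, was at 48.8, 51.7 and 48.6 CPM against 47.1, 42.6 and 39.6 CPM (0.20, -0.04 to 0.45). Creb3, a membrane-bound transcription factor, and its target Arf4 are known from cultured cells as a branch of the Golgi stress response. Arf4 was at 282, 310 and 341 CPM in the knockout libraries against 336, 291 and 299 CPM in wild type (0.01, -0.26 to 0.28). Creb3 was at 39.1, 44.8 and 48.9 CPM against 56.0, 41.3 and 36.3 CPM (-0.01, -0.42 to 0.40), and the genes opposite to it over 15.2% and 5.61% of its exon bases, Tln1 and Gba2, both rose. DESeq2 called none of the 4 either, and with total counts Gbf1 and Arf4 were higher and the estimate of Arf1 was 0.31. With the trend over GC content removed, Arf1 was lower (-0.32, adjusted p = 0.0367) and the estimate of Gbf1 was -0.0040.

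Set side by side, the 5 main subgroups had called shares close to the 38.4% of all tested genes: 38.5% of golgins, 37.5% of COG genes, 42.9% of COPI genes, 33.3% of p24 and receptor genes and 33.3% of SNARE genes. Their median changes were -0.10 for golgins, -0.24 for COG, 0.08 for COPI, 0.25 for p24 and receptor genes and -0.19 for SNAREs. With total counts they were 0.32 for golgins, 0.17 for COG, 0.50 for COPI, 0.67 for p24 and receptor genes and 0.23 for SNAREs. With the GC trend removed they were -0.05, -0.12, -0.17, 0.23 and -0.12 in the same order, so that only the median of the p24 and receptor genes kept its sign in both settings. No difference between subgroups was tested. Summed over its members, the COG complex was at 263 to 295 CPM in the knockout libraries and 316 to 318 CPM in wild type. The golgins summed to 859 to 918 CPM in the knockout and 947 to 1011 CPM in wild type. The p24 and receptor genes summed to 1411 to 1530 CPM in the knockout and 1283 to 1468 CPM in wild type, where wild type 1 overlapped the knockout libraries, and the COPI genes to 1250 to 1457 CPM in the knockout and 1444 to 1575 CPM in wild type. The 35 genes that did not pass had estimates between -0.39 and 0.35, and every one of their 95% intervals lay within a factor of 2 in both directions.

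The changes followed the base composition of the transcripts. Over the 54 genes, Spearman's rho between the change and the GC content of the transcript was 0.58, as a description across genes of the same libraries, against 0.34 over 13988 tested genes. Of 18 genes with transcripts under 45% GC, 9 fell and 1 rose (Lman1). Of 21 with at least 50% GC, none fell and 6 rose. The shares of all tested genes called at such GC contents were not counted, so these counts do not set the listed genes apart. Bet1 had the lowest GC content of the list, 36.6%, and Gcc2, Cog5, Blzf1, Golph3 and Copb1 followed at 41.2% to 42.6%, with Acbd3 (40.0%, change 0.12) as the exception among the lowest. Transcript length showed no such relation with composition scaling alone (rho 0.05), while its rho was 0.23 with the GC trend removed.

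When the trend of each library over GC content was removed, rho was -0.02, a value that the removal itself brings near 0. In that setting 8 genes were higher and 6 lower, beside 2473 and 2314 of 13988 tested genes. Of the original calls 4 higher and 1 lower remained, namely Kdelr3, Gcc1, Lman1 and Copa above and Copb1 below. Golph3 was then at -0.15 (0.309), Gcc2 at -0.13 (0.343) and Cog8 at 0.29 (0.0561). In their place Acbd3, Tgoln1, Tmed10 and Golga3 were higher, by 0.58, 0.47, 0.44 and 0.37, and Cog7, Cog4, Cog2, Arf1 and Golga5 were lower. Whether the trend with GC content came from the samples or from their handling was not tested.

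**Figure D5:**
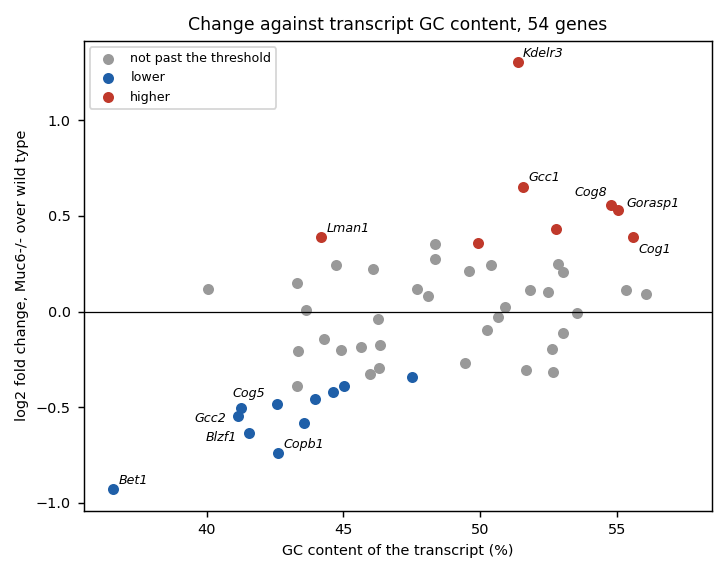
Log2 fold change of each of the 54 genes, knockout over wild type, against the GC content of its transcript in percent, with red for higher, blue for lower and grey for genes not past the threshold. All 11 lower genes lie at 36.6% to 47.5% GC, and 7 of the 8 higher genes at 49.9% or above.

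The start regions of the genes were searched for motifs in 300-base windows, from 250 bases before to 50 after a RefSeq start, on both strands. Windows were found for 46 of the 54 genes. A gene could have several windows, as Arf1 did, and a match in any of them counted. The shares below were not matched for the number of windows per gene. The Golgi apparatus stress response element (GASE), ACGTGGC, known from human cells as a site of the transcription factor TFE3, was found in 10 of 46 genes (21.7%), against 4.4% of 10740 tested protein-coding genes and 2.95% of all 27025 genes with a window. TGACGTGG, an element of the unfolded protein response that overlaps it, was found in 6 (13.0%, against 0.987% of tested coding genes), the cyclic AMP response element TGACGTCA in 3 (6.52%, against 3.45%) and the E-box CACGTG in 5 (10.9%, against 11.2%). The ER stress response element, CCAAT and CCACG with 9 bases between them, was in none of the 46 genes (0.177% of tested coding genes). With the first window of each gene, the median GC content was 58.8% for the listed genes and 60.7% for tested coding genes. It was 52.7% for all windows, and the part of base composition in these shares was not tested. These matches are a description of letters, not of binding.

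The GASE matches are shown with the bases around them, which differ between genes, while the matched letters are the same by the search itself. Each line gives the first match of a gene, 5′ to 3′ on the strand of the gene, with the motif or its reverse complement in capitals (RefSeq, GRCm38.p6).
Arf1, chr11:59228228-59228254, minus strand: gcaggcgctgACGTGGCtgccgtcagc
Cog3, chr14:75754599-75754625, minus strand: tccgtcgaaaGCCACGTctgttttggc
Copg1, chr6:87887933-87887959, plus strand: gctcagggcgACGTGGCgggcgggagt
Creb3, chr4:43562542-43562568, plus strand: agcccccgggACGTGGCgcagcccagg
Golga3, chr5:110176874-110176900, plus strand: cccttgcacaGCCACGTcctaccggag
Kdelr3, chr15:79516367-79516393, plus strand: tggccgccccGCCACGTcaccgcgcgg
Stx5a, chr19:8741422-8741448, plus strand: tggcgcagcaGCCACGTcaccgagtta
Tmed3, chr9:89705228-89705254, minus strand: ttctccggagACGTGGCagacactaag
Tmed9, chr13:55593121-55593147, plus strand: ccgctgggctACGTGGCtcggcagtct
Uso1, chr5:92137871-92137897, plus strand: ccttcgagccGCCACGTaacgccacgt

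Of these 10 genes Kdelr3 rose, Stx5a fell and 8 did not pass, with changes of -0.34 to 1.30. Among all tested genes 38.4% were called. In Kdelr3 the match began 31 bases before the start and ran into a match to TGACGTGG in reverse complement, and in Copb1, which fell, a TGACGTGG match began 28 bases before the start. The windows of Gcc1 and Bet1 printed above held no match to any of the 5 motifs. Tfe3 rose, at 32.4, 30.6 and 28.9 CPM in the knockout libraries against 19.9, 16.8 and 15.2 CPM in wild type (0.82, adjusted p = 0.00361). Tfeb (0.25, adjusted p = 0.356) and Mitf (-0.26, adjusted p = 0.736), other transcription factor genes linked to Golgi stress, did not pass.

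Other genes of the same routes were taken from 8 lists, 67 genes in all, of which 18 were higher (26.9%) and 12 lower (17.9%), beside 19.3% and 19.2% of all tested genes, with a median change of 0.05. The difference between these shares was not tested. Of 12 ER chaperone genes 7 were higher and 1 lower. Among them Hyou1, a folding factor, was at 191 to 207 CPM in the knockout libraries against 76.6 to 89.8 CPM in wild type, a rise of 1.27 (adjusted p = 3.98e-04). Pdia4, a disulfide isomerase, was at 253 to 286 CPM in the knockout libraries against 103 to 122 CPM in wild type and rose by 1.29 (adjusted p = 4.43e-04). KDEL receptors return such chaperones to the ER, and with all libraries in the fit Kdelr3 was the only KDEL receptor gene that passed. A link between these rises was not tested.

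Genes that act beside the coat and tethers moved both ways. Copg2, the second gamma subunit gene of COPI, was at 31.9 to 36.8 CPM in the knockout libraries against 59.3 to 64.1 CPM in wild type and fell by 0.80 (adjusted p = 0.00136), while Copg1 did not pass. In its list of 9 COPI and Arf genes 2 were higher and 1, Copg2 itself, was lower, with Arf3 at 0.43 (adjusted p = 0.0402). In the tether that receives COPI vesicles at the ER, 2 of 7 were higher and 1 lower, with Nbas at 0.63 and the SNARE gene Use1 at -0.72 (adjusted p = 0.00813 and 0.00505). Of 5 other p24 genes 2 were lower and none higher, Tmed7 at -0.42 and Tmed4 at -0.40 (adjusted p = 0.0161 and 0.0177), with Tmed4 at 0.02 with total counts.

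Of 13 tether genes of the GARP and TRAPP complexes 3 were higher and 3 lower. Trappc1, a core TRAPP subunit gene, was at 29.7 to 33.2 CPM in the knockout libraries against 59.6 to 64.9 CPM in wild type and fell by 1.02 (adjusted p = 6.15e-04), and Trappc10 rose by 0.62 (adjusted p = 0.00413). Of 9 Golgi Rab genes 2 were lower and none higher, with Rab2a at 188 to 235 CPM in the knockout libraries against 399 to 411 CPM in wild type, a fall of 0.92 (adjusted p = 0.00113), and Rab1a at -0.34 (adjusted p = 0.0244, but 0.08 with total counts and 0.03 once the GC trend was taken out). Of 7 other Golgi SNARE genes 2 were higher and 1 lower: Nsf, which takes SNARE complexes apart after fusion, rose by 0.62 (adjusted p = 0.00277), and Napg fell by 0.50 (adjusted p = 0.0174). Of 5 transcription factor genes linked to Golgi stress 2 were higher and 1 lower, with Ets1 at 2.02 (adjusted p = 0.011). With total counts the calls of Use1, Tmed7, Tmed4, Rab1a and Napg ended. With the GC trend removed those of Arf3, Rab1a, Napg and Tmed7 ended.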

How the data were processed

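Bulk RNA-seq libraries of antral mucosa were made from total RNA with a poly(A)-selecting, strand-marking kit, per the labels' protocols. The authors deposited estimated counts per gene, 1 column per library, not scaled; that they are estimated counts was read from the values, of which 28.8% to 34.25% above 0 in a library are not whole. The genome build was mm10, per the submitters' processing notes. No aligner, counting program, annotation or strand setting could be taken from the labels or headers (not given in the sources used here), so overlapping genes and close copies may share reads.

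Counts were rounded to whole numbers. Identifiers, version removed, were matched to GENCODE M21 on the same build (34652 of 34866). Genes were filtered with filterByExpr in edgeR 4.0.16 (R 4.3.3), scaled with TMM factors and tested with robust quasi-likelihood fits of knockout against wild type, with Benjamini-Hochberg adjustment over 14017 genes at 0.05. Standard errors are the log2 fold change over the square root of F. CPM values are per 1e6 of the scaled library size, and levels per kilobase use the transcript with the longest coding sequence. Nothing in the labels says that replicates were separate animals, so p-values reflect only how these samples spread, possibly for technical reasons. Counting noise was exceeded between any 2 libraries of a genotype (16 to 79.6 for chi-square over its degrees of freedom). The 54 genes had mean counts of 205.3 to 19540 per library, so counting error bears most on Kdelr3.

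Alternatives were RLE factors, total counts, no filter beyond 1 count, DESeq2 1.42.0, the replicate number as a block, an offset that takes out each library's trend with transcript GC content (lowess span 0.3), and each library left out. Leaving out both libraries numbered 1 and the same settings for the neighbouring lists were chosen after seeing the data. Every gene of the list past the threshold is named with its values, in a subgroup with none the 2 with the smallest p, and of each neighbouring list up to 2 with the smallest adjusted p. Other genes are given as examples. The genes and lists were chosen with earlier results of these data known, so no list-level test was made. The fits were tested on simulated data.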

Additional observations from a re-analysis of the deposited data

How the results depend on the processing

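The genes called higher (8) and lower (11) numbered 28 and 1 with total counts. Library by library left out, they numbered 3 to 11 and 4 to 10. In those fits 1600 to 3045 of all tested genes (14343 to 14530) were higher and 1721 to 2964 lower. With the GC trend removed 6 of the listed genes were lower, beside 2314 of 13988 tested genes. With RLE factors, no filter and DESeq2 the 2 counts of listed genes stayed within 1.5 times. With total counts 7 golgins were higher and 0 lower (2 and 3 as reported), 3 Golgi membrane genes higher and 0 lower (0 and 3), 2 Arf and Creb3 genes higher (0), 0 COG genes lower (1), 3 COPI genes higher and 0 lower (1 and 2), 8 p24 and receptor genes higher (3), and 3 SNARE genes higher and 1 lower (0 and 2). The neighbouring lists then had 33 higher and 3 lower (18 and 12). With the GC trend removed 1 golgin was lower, 2 Golgi membrane genes were higher and 0 lower, 1 Arf and Creb3 gene lower, 0 COG genes higher and 3 lower, 1 COPI gene lower and 0 SNARE genes lower. DESeq2 gave 1 Golgi membrane gene higher and 1 COG gene higher and 2 lower, RLE factors 1 COG gene higher, and no filter 1 COG gene higher and 1 SNARE gene lower. Without both libraries numbered 1, a setting chosen after seeing the data, 1 COG gene was higher and 2 lower, 3 COPI and 5 p24 and receptor genes higher and 1 SNARE gene lower. With each library left out, golgins numbered 1 to 2 higher and 1 to 3 lower, Golgi membrane genes 1 to 2 lower, COG genes 0 to 2 higher and 0 to 2 lower, COPI genes 0 to 2 higher and 1 to 3 lower, p24 and receptor genes 1 to 5 higher, SNARE genes 1 to 2 lower, and the neighbouring lists 11 to 25 higher and 5 to 14 lower. The estimates of 19 of the 54 genes changed sign with total counts, 2 of them called genes, and those of 10 with the GC trend removed, none of them called. In the other settings 0 to 3 changed sign, none of them called. Among the genes named by rule these were Golga7 (0.030), Stx5a (0.077) and Arf1 (0.31) with total counts and Gbf1 (-0.0040) with the GC trend removed. With total counts, by construction, every estimate shifts up with the median of all genes, and 84% of calls were higher, against 50.1% with composition scaling. The other causes were not tested.

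Correlations did not settle whether the replicate numbers pair the samples. Deviations from the group means correlated at 0.252, 0.0908 and 0.191 for numbers 1, 2 and 3, and knockout 2 correlated best with wild type 3 (0.275). Knockout 1 correlated above 0 only with wild type 1 (-0.0673 and -0.291 with wild type 2 and 3). A shared origin of the libraries numbered 1 was not tested. With the replicate number as a block, 5 genes were higher and 7 lower, with 1 COG gene higher and 0 lower, 0 COPI genes higher and 1 SNARE gene lower. Of all 14017 tested genes, 2572 were then higher and 2497 lower.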
